A study of Mus musculus with 10 samples.

Results

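The AP-1 and EGR immediate early factors are a set of 9 transcription factor genes, Fos, Fosb, Fosl2, Jun, Junb, Jund, Egr1, Egr2 and Egr3, described here in sorted mouse regulatory T (Treg) cells with and without LKB1. They were chosen by name, as the genes that are the only gene symbol of a probe set (a group of array probes for 1 transcript). All 9 were found, among 22180 genes, on 10 probe sets. Only Jund had 2 probe sets, of which the brighter was used. The samples were 5 wild type (WT) and 5 LKB1-deficient Treg preparations, 1 array each. All were sorted from mixed bone marrow chimeras, mice whose blood cells come from marrow of more than 1 donor, and were lysed without culture. LKB1 is the kinase encoded by Stk11. No source used here names the deleting Cre, the age of the mice or the number of mice behind a sample. The p-values therefore describe the spread among these preparations, and that spread may be technical. The comparison asks which levels of these factors differ when Treg cells lack LKB1.

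Immediate early genes are switched on within minutes of a signal, from factors already present in the cell, and without new protein synthesis. In T cells the trigger is often the antigen receptor, which acts through the Ras and MAP kinase route, serum response factor (SRF) with its ETS partners, and CREB. Fos and Jun proteins pair through leucine zippers to form AP-1, which binds DNA with NFAT and with BATF and IRF4. EGR proteins bind GC-rich sites through zinc fingers, and Egr2 and Egr3 are known as brakes on T cell activation.

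RefSeq windows of 250 bases before and 50 after a transcription start (GRCm38.p6) were found for 7 of the 9 members, those of Fos, Fosb, Fosl2, Jun, Junb, Jund and Egr2. The bases before the start are printed for Fosl2, which had the largest difference of the set, and for Junb and Egr2, which passed the test between the groups. Capitals mark matches to any of 6 motifs searched on both strands.
Fosl2, chr5:32136222-32136471, plus strand: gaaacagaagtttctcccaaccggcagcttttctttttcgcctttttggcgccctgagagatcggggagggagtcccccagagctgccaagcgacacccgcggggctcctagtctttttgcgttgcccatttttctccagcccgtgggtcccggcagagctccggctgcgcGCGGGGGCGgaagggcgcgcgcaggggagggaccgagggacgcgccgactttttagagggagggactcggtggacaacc
Junb, chr8:84978749-84978998, minus strand: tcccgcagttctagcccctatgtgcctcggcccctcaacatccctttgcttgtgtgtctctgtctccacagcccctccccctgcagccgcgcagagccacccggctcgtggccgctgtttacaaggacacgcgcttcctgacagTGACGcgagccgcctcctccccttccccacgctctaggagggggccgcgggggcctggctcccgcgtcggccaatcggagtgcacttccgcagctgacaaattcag
Egr2, chr10:67537619-67537868, plus strand: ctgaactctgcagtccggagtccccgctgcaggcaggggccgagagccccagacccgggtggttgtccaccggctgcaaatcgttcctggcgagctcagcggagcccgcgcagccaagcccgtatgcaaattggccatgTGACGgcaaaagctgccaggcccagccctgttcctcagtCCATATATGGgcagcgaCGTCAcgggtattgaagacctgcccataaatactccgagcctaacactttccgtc
The Egr2 window is the third of 5 listed for that gene and was chosen after its matches were seen. The fourth and the fifth overlap it and hold the same matches, the second has a CArG box alone and the first has none. The printed window held a CArG box, the element that SRF binds, from base -72 to -63 relative to the start, with TGACG, the core of the cyclic AMP response element, on either side of it, at -111 to -107 on the plus strand and at -55 to -51 on the minus strand. Of 32851 windows in the table, 1.63% held a CArG box and 20.8% the TGACG core, shares per window that a gene with several windows has more chances to meet. Junb held the core at -106 to -102. Fosl2 held neither and had 1 EGR site (GCGNGGGCG, in 5.55% of windows) at -79 to -71. The Fos window had the core at -129 to -125 and -66 to -62, and the Fosb window had it at -60 to -56 with an EGR site at -50 to -42. The full cyclic AMP element TGACGTCA, which contains the core (1.79% of windows), the AP-1 site TGANTCA (7.81%) and the ETS site CCGGAAGT (3.89%) matched in no window of a member, and the windows of Jun and Jund had no match to any of the 6. A match is a run of letters and was not shown to be a bound site. Only exact matches to the 6 patterns were counted, so a window without a match may still hold a variant of such a site.

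Values are log2 signals, and 1 unit is a 2-fold difference. The descriptions of the samples number them with codes that run through 6 arrays, replicates 1, 2 and 3 of each group (set 1), and then through 4 arrays, replicates 4 and 5 (set 2). Their meaning is unknown here. Array medians lay between 4.83 and 4.86 on WT arrays and between 4.88 and 4.94 on LKB1-deficient arrays. The Stk11 probe set itself read 6.61 to 6.95 in WT samples and 6.57, 6.01, 6.05, 6.71 and 6.78 on LKB1-deficient arrays 1 to 5, with overlapping groups (limma adjusted p = 0.335), and no source used here says whether it lies in the deleted part. Markers of other cells were raised on some LKB1-deficient arrays. The T and Treg identity list (mean of 9 measured genes) was 10.64 to 10.73 on WT arrays and 10.15 to 10.77 on LKB1-deficient ones. Of those 9 genes 0 passed, 8 had negative estimates (median -0.16) and 2 were lower without overlap, against 3.71% of all genes. The mean of 24 macrophage, monocyte and dendritic genes was 6.67 to 6.96 on WT arrays, 7.15, 6.66 and 6.92 on LKB1-deficient arrays 1, 2 and 3, and 9.17 and 9.31 on arrays 4 and 5. The mean of 18 B and plasma cell genes was 5.70 to 5.99 in WT samples and 7.0, 5.85, 5.89, 6.93 and 7.10 on LKB1-deficient arrays 1 to 5. On LKB1-deficient arrays 2 and 3 both means thus lay near or within the WT range. In 3 of the 24 macrophage list genes, against 0.996% of all genes, every LKB1-deficient array was above every WT array, arrays 2 and 3 included. The CD8 list was above its own WT range on arrays 2 and 3, at 6.97 and 6.88 (6.71 at most in WT). The erythroid and platelet list was slightly above, at 5.54 and 5.65 (5.52 at most in WT). The NK list was at 4.85 and 5.10 (5.03 at most in WT), above on array 3 only. Identity was lowest on array 1, at 10.15, where Foxp3, the Treg lineage factor, was at 9.86 against 10.95 to 11.19 on WT arrays.

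**Figure D1:**
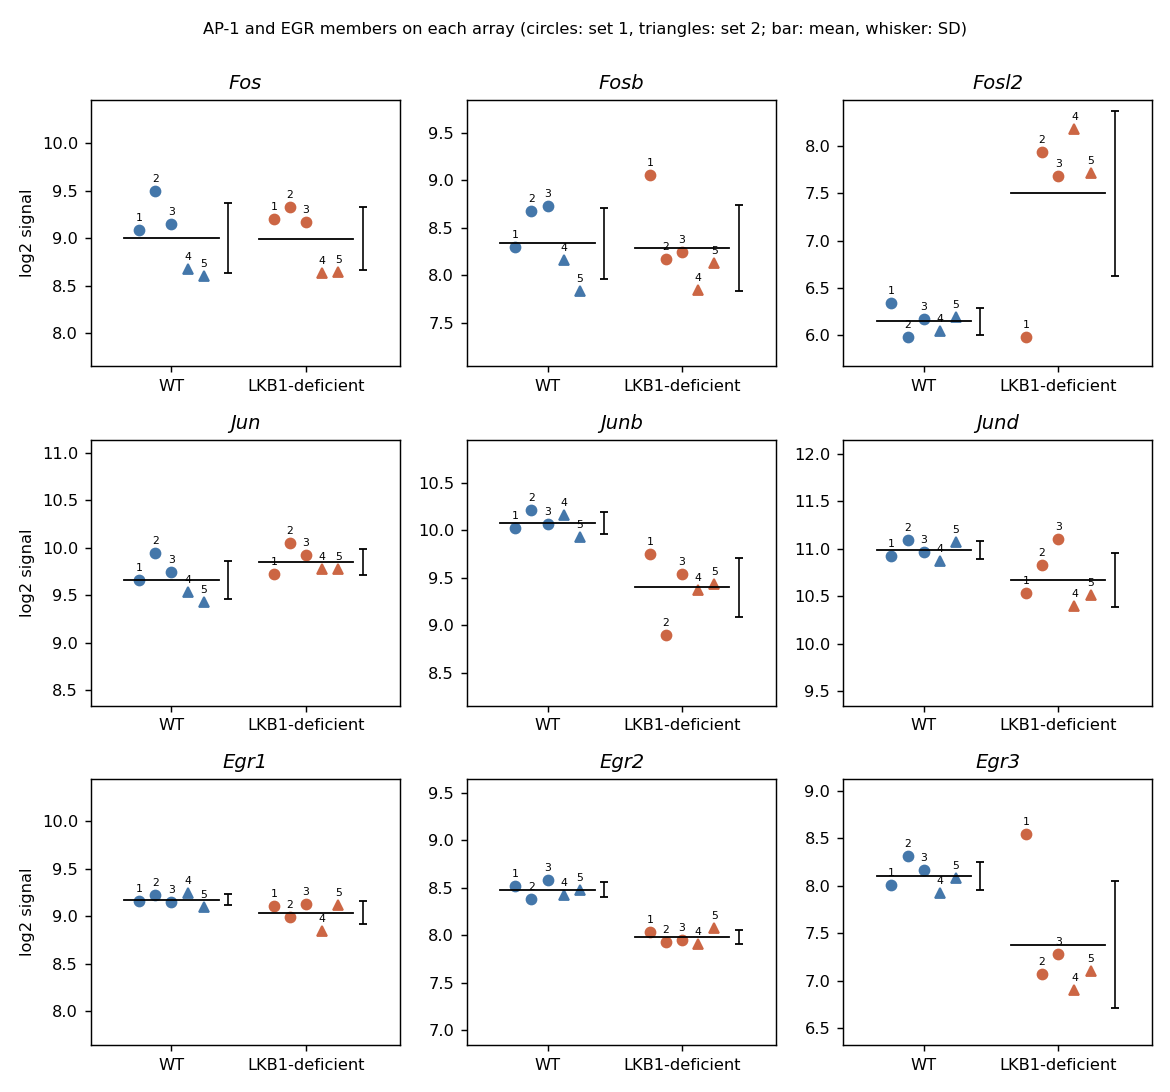
Log2 signal of each member (vertical axis, the same span in every panel) on the 5 WT and 5 LKB1-deficient arrays, with replicate numbers beside the points, the mean as a bar and the SD as a whisker. The Egr2 and Junb groups are apart, Fosl2 and Egr3 are apart except for LKB1-deficient array 1, and Fos follows the sets of sample codes (circles for set 1, triangles for set 2).

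Of the 9 members, 2 were lower in LKB1-deficient cells, Junb and Egr2, and 0 were higher at a limma adjusted p under 0.05 over all genes. Over all 22180 genes the same rule called 1.06%, 0.234% as higher and 0.83% as lower. The groups did not overlap in the same 2 members, both lower, against 4.71% of all genes (0.996% higher and 3.71% lower). Estimates were negative in 7 members and positive in 2, with a median of -0.13, and the median over all genes was 0.0034. With so few members these counts are a description of the 9 genes. Fosl2 and Egr3 had the largest differences, 1.35 and -0.72, but their groups overlapped through 1 array and they did not pass.

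Fosl2 encodes FRA-2, a FOS family partner of JUN proteins that lacks the strong activation domain of FOS. On the WT arrays 1 to 5 its log2 signal was 6.34, 5.99, 6.18, 6.04 and 6.19. On the LKB1-deficient arrays 1 to 5 it was 5.98, 7.93, 7.68, 8.17 and 7.71. LKB1-deficient array 1 was level with the lowest WT array, and the other 4 lay above the highest WT array with a gap of 1.34. The difference over all arrays was 1.35 (SE 0.32, 95% confidence interval 0.64 to 2.05, 2.54-fold, adjusted p = 0.0741), higher in 4 of 5 arrays. Without LKB1-deficient array 1 it was 1.73 (adjusted p = 4.2e-05), but that array was the lowest of its group, and any fit without it gives a larger difference. In 320 genes, 1.44% of all, LKB1-deficient arrays 2 to 5 were likewise above every WT array and array 1 was not, and in 162 of them (0.73%) array 1 was below every WT array. On arrays 2 and 3, where Fosl2 was at 7.93 and 7.68, the macrophage list was at 6.66 and 6.92 and the B cell list at 5.85 and 5.89. On arrays 4 and 5 both lists were raised, and Fosl2 was at 8.17 and 7.71. Without arrays 1, 4 and 5 the difference was 1.66 (adjusted p = 6.4e-04), and with both list means as covariates 1.63 (adjusted p = 0.00287). These 2 fits called 1.61% and 1.39% of all genes, 0.694% and 0.528% as higher and 0.915% and 0.866% as lower. The first of them also leaves out array 1, the lowest of the group. In the second, array 1 alone had a raised B cell list (7.0) without the macrophage list of arrays 4 and 5 (7.15 against 9.17 and 9.31). Together the covariates can thus absorb much of array 1, and the 2 fits are not separate tests.

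Fos and Fosb, the classical FOS proteins of the immediate early response, had nearly the same mean in both groups. Fos was at 9.09, 9.50, 9.15, 8.68 and 8.60 on WT arrays 1 to 5, and at 9.20, 9.33, 9.17, 8.64 and 8.64 on LKB1-deficient arrays 1 to 5. The groups overlapped throughout, and arrays 4 and 5 were the lowest in each. The difference was -0.0099 (SE 0.19, 95% confidence interval -0.43 to 0.41, adjusted p = 0.988), so a change of more than 0.43 in either direction lay outside the interval. Its sign was unsettled, at 0.24 without LKB1-deficient arrays 1, 4 and 5 and 0.29 with the marker covariates, neither past the threshold. Fosb was at 8.30, 8.67, 8.72, 8.16 and 7.83 on WT arrays and at 9.05, 8.17, 8.25, 7.84 and 8.13 on LKB1-deficient arrays. Array 1 of the LKB1-deficient group was above every WT array, and the other 4 lay within the WT range. The Fosb difference was -0.05 (SE 0.22, 95% confidence interval -0.53 to 0.44, adjusted p = 0.954).

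Among the JUN genes the 3 members had different estimates. Junb, whose protein is a weaker activator than JUN and can oppose it, was at 10.02, 10.21, 10.07, 10.16 and 9.93 on WT arrays 1 to 5. On LKB1-deficient arrays it was at 9.75, 8.90, 9.54, 9.37 and 9.43, each below the lowest WT array. It fell by 0.68 on the log2 scale (SE 0.14, 1.60-fold lower, adjusted p = 0.0423), lower in 5 of 5 arrays. The call was narrow. Of the 10 fits that left out 1 array, Junb passed in 2, those without LKB1-deficient array 1 or 2, and its adjusted p reached 0.112 without WT array 3. Its estimate stayed between -0.77 and -0.56 in these fits. It was -0.70 within set 1, -0.65 within set 2, and -0.86 (adjusted p = 0.0324) without LKB1-deficient arrays 1, 4 and 5. That last fit leaves out array 1, the highest of the group, and keeps array 2, the lowest, which enlarges the decrease.

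Jun, the prototype of the family and the usual partner of FOS, was at 9.66, 9.94, 9.74, 9.53 and 9.43 on WT arrays and at 9.73, 10.05, 9.92, 9.77 and 9.77 on LKB1-deficient arrays. The ranges overlapped, and within set 2 both LKB1-deficient arrays were above both WT arrays. The difference of 0.19 (SE 0.11, 95% confidence interval -0.05 to 0.43, adjusted p = 0.493) did not pass. Jund, the JUN gene that resting cells express most steadily, was at 10.92, 11.09, 10.97, 10.87 and 11.07 on WT arrays. On LKB1-deficient arrays it was at 10.54, 10.83, 11.10, 10.40 and 10.51, below all WT arrays on 4 of 5 and above them on array 3. The difference was -0.31 (SE 0.13, adjusted p = 0.30). The lowest values were on arrays 1, 4 and 5, those with raised B cell markers. Without them the difference was -0.02, but any fit without the lowest arrays of a group moves its mean up. The cause was not tested. The second Jund probe set had a difference of -0.10 (adjusted p = 0.672).

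Egr2 had the clearest separation of the set. Its log2 signal was 8.52, 8.38, 8.58, 8.43 and 8.48 on WT arrays 1 to 5 and 8.03, 7.93, 7.95, 7.91 and 8.08 on LKB1-deficient arrays 1 to 5. The highest LKB1-deficient array was 8.08 and the lowest WT array 8.38, and the SD was 0.08 in WT and 0.07 in LKB1-deficient samples. Egr2 fell by 0.50 (SE 0.08, 1.41-fold lower, 95% confidence interval -0.67 to -0.32, adjusted p = 0.0165), lower in 5 of 5 arrays. The decrease was 0.52 within set 1 and 0.46 within set 2. On LKB1-deficient arrays 2 and 3 against all WT arrays its difference was -0.54 (adjusted p = 0.033), and with the marker covariates -0.55 (adjusted p = 0.0295). Egr2 passed in 7 of the 10 fits with 1 array left out, with the estimate between -0.52 and -0.47. The call ended without WT array 1 (adjusted p = 0.0558), WT array 3 (0.0621) or WT array 4 (0.0536).

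Egr3, the close relative of Egr2 with which it shares functions in T cells, was at 8.01, 8.31, 8.17, 7.93 and 8.08 on WT arrays. On LKB1-deficient arrays it was at 8.55, 7.07, 7.28, 6.90 and 7.10, so array 1 was above every WT array and the other 4 below every WT array with a gap of 0.65. Over all arrays the difference was -0.72 (SE 0.26, 1.65-fold lower, adjusted p = 0.219) and did not pass. Without LKB1-deficient array 1 it was -1.01 (adjusted p = 0.00111), again without the array that lay nearest to WT. Without arrays 1, 4 and 5, which also leaves out that array, it was -0.92 (adjusted p = 0.00958). With the marker covariates, which together can absorb much of array 1, it was -0.89 (adjusted p = 0.0317). LKB1-deficient arrays 2 to 5 lay below every WT array, and array 1 did not, in 300 genes (1.35%), and in 93 of them (0.419%) array 1 was above every WT array, as in Egr3. Array 1 thus carried Egr2 at the level of its group and Egr3 and Fosl2 apart from it.

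Egr1, the most widely studied EGR factor and a direct target of the ERK route, was at 9.16, 9.22, 9.15, 9.25 and 9.10 on WT arrays and at 9.11, 8.99, 9.13, 8.85 and 9.12 on LKB1-deficient arrays. The ranges overlapped, with 2 LKB1-deficient arrays below all WT arrays. The difference of -0.13 (SE 0.09, 95% confidence interval -0.32 to 0.05, adjusted p = 0.527) did not pass, and a decrease as large as that of Egr2 lay outside its interval.

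**Figure D2:**
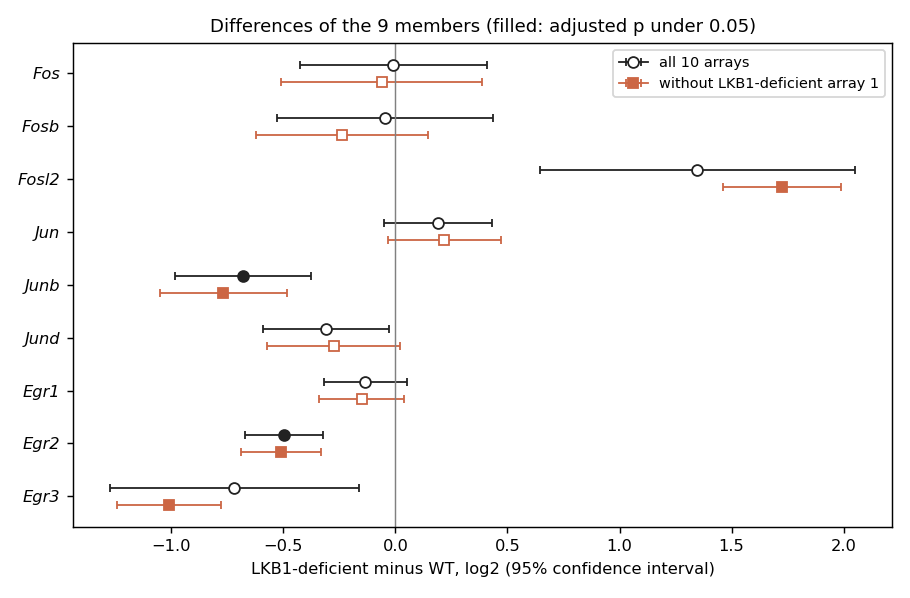
Difference of each member (horizontal axis, LKB1-deficient minus WT, log2) with its 95% confidence interval, over all 10 arrays (circles) and without LKB1-deficient array 1 (squares). Filled symbols passed at an adjusted p under 0.05. Junb and Egr2 passed in both fits, and Fosl2 (1.35 and 1.73) and Egr3 (-0.72 and -1.01) without that array.

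**Figure D3:**
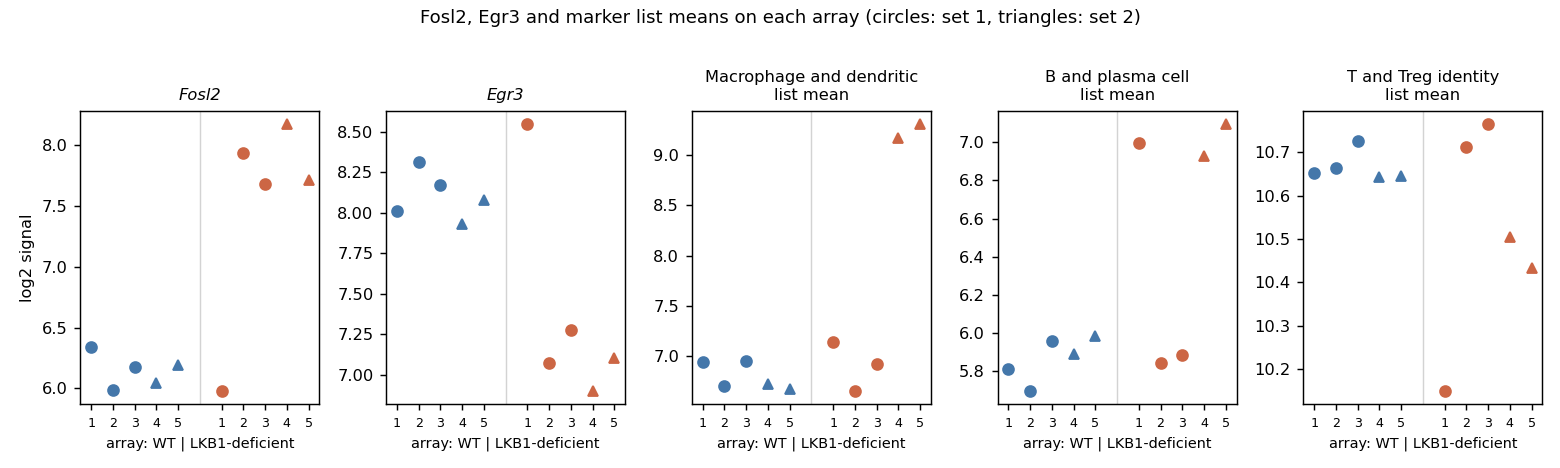
Log2 signal of Fosl2 and Egr3 and the mean log2 signal of 3 marker lists (vertical axes, each on its own scale) on WT arrays 1 to 5 and LKB1-deficient arrays 1 to 5. Fosl2 is high and Egr3 low on LKB1-deficient arrays 2 to 5. The macrophage list is high on arrays 4 and 5 and the B cell list on arrays 1, 4 and 5.

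Fos followed the sets of sample codes. It was at 9.09 to 9.50 on the 6 arrays of set 1 and at 8.60 to 8.68 on the 4 arrays of set 2, whatever the genotype. With the group as a term, set 2 was lower than set 1 by an estimated -0.60 (SE 0.10, adjusted p = 0.303) in Fos and -0.54 (SE 0.17, adjusted p = 0.657) in Fosb, and neither passed. Fosb was at 8.17 to 9.05 in set 1 and at 7.83 to 8.16 in set 2, with only a narrow gap between 8.174 and 8.159. How many of all genes have sets that do not overlap was not counted. Limma called 0 of 22180 genes for this term, and 1515 had an unadjusted p under 0.05. A difference below -0.5 between the sets was found in 98 genes, 2 of them members. Of 48 other immediate early genes 22 were lower in set 2 and 0 by more than 0.5, with a median of 0.03 and Cd69, an early activation marker, lowest at -0.28. Of the 9 members 8 were lower in set 2, with a median of -0.19, against 10703 of 22180 genes and a median of 0.0062. Egr3 had a set difference of -0.40, Jun -0.21, Jund -0.19, Egr1 -0.05, Junb -0.03, Egr2 -0.0070 and Fosl2 0.35, none past the threshold. The group differences of the members did not depend on the set past the threshold. For the interaction, called in 1.08% of all genes, the smallest adjusted p of a member was 0.826, in Jund, and the estimates of Fosl2 were 1.03 in set 1 and 1.82 in set 2. Within set 2 alone 1 member was higher, Fosl2, and 1 lower, Egr3, where 2.11% of all genes were called, 1.91% as higher and 0.207% as lower. Set 2 does not hold LKB1-deficient array 1. Its LKB1-deficient arrays, 4 and 5, are those with the macrophage list at 9.17 and 9.31.

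Genes that act with or beside the members were taken from 7 lists written with earlier results of these data known, with 131 of 143 genes measured. Of these 131, 8 were lower, 0 higher and 123 did not pass, where the same rule called 0.83% of all genes as lower and 0.234% as higher. The median difference of the 131 was -0.03. Without LKB1-deficient array 1 the counts were 9 lower and 8 higher, with 1.53% and 0.812% of all genes called, 2.34% in all. The members had 3 lower and 1 higher in that fit.

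Among other leucine zipper proteins that pair with JUN or compete with it, 1 of 14 was lower, Batf, and 0 were higher, with a median of 0.12. BATF pairs with JUN proteins and binds with IRF4 in effector T and Treg cells. Batf was at 7.87 to 8.22 on WT arrays and at 6.96, 7.18, 7.16, 7.47 and 7.30 on LKB1-deficient arrays 1 to 5. It fell by 0.87 (SE 0.11, adjusted p = 0.0074), past the threshold in all 10 fits with 1 array left out. The probe set of Fosl1 also names Ccdc85b and was given no gene. Egr4 and the EGR corepressors Nab1 and Nab2 gave 0 calls in 3 genes. Nab1 had a difference of 0.25 (adjusted p = 0.296) and Nab2 one of 0.14 (adjusted p = 0.696).

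Of 48 other immediate early genes, 4 were lower, Spry1, Myc, Plk3 and Irf4, 0 were higher and 44 did not pass, with a median of -0.07. Spry1, a feedback inhibitor of the Ras route, was at 6.66 to 7.20 on WT arrays and 5.63 to 6.35 on LKB1-deficient arrays, a difference of -0.78 (adjusted p = 0.0396). Irf4, the partner of BATF and AP-1 and a factor of effector Treg cells, was at 7.25 to 7.69 and 6.28 to 7.08 (-0.74, adjusted p = 0.0442). Myc, a driver of growth, was at 9.47 to 9.68 on WT arrays and lowest on LKB1-deficient array 1, at 8.21, with 8.75 to 9.14 on the other 4 (-0.76, adjusted p = 0.0398). Plk3, a stress-responsive kinase, had a difference of -0.59 (adjusted p = 0.0425). Spry1 and Myc stayed past the threshold in 3 of the 10 fits with 1 array left out, Plk3 in 2 and Irf4 in 1. Without LKB1-deficient arrays 1, 4 and 5, Spry1 passed (adjusted p = 0.0486), and Myc (-0.47, adjusted p = 0.0557), Irf4 (-0.74, adjusted p = 0.0513) and Plk3 (-0.41, adjusted p = 0.207) did not.

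No measured gene of the route upstream of the members was called. These are transcript levels, and the activity of the route was not measured. In the Ras and MAP kinase list, with 17 of 25 genes measured, 0 passed, with a median of -0.05. Mapk14, the p38 alpha kinase, had a difference of 0.36 (adjusted p = 0.249), and Araf, a RAF kinase, one of -0.20 (adjusted p = 0.324). In the list of SRF, ETS, CREB and coactivator genes 0 of 11 passed, with a median of -0.04. Crem, a CREB relative whose short forms are induced by cyclic AMP, missed the threshold narrowly. It was at 5.78 to 6.23 on WT arrays and at 6.30, 6.57, 6.50, 6.69 and 6.76 on LKB1-deficient arrays 1 to 5, so the groups did not overlap (0.55, SE 0.12, adjusted p = 0.050, unrounded above the threshold). It passed in 6 of 24 alternative fits. Crtc3, a CREB coactivator that LKB1-dependent SIK kinases hold in the cytoplasm, had a difference of -0.27 (adjusted p = 0.163) without overlap.

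Of 18 T cell genes linked to EGR factors, 1 was lower, Nfatc1, the inducible NFAT factor, at 8.91 to 9.25 on WT arrays and 8.31 to 8.67 on LKB1-deficient arrays (-0.48, adjusted p = 0.0473). It passed in 1 of the 10 fits with 1 array left out, and the list median was -0.0047. Of 20 T cell genes linked to AP-1, 2 were lower, 0 were higher and 18 did not pass, with a median of 0.0015. Tnf, the inflammatory cytokine, was at 9.0 to 9.14 in WT samples and 8.04, 8.33, 8.11, 7.82 and 8.38 on LKB1-deficient arrays (-0.92, adjusted p = 0.00606), and passed in all 10 of those fits. Il10, the anti-inflammatory cytokine, was at 5.42 to 6.18 and 3.99 to 5.19 (-1.21, adjusted p = 0.0335), and passed in 2.

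**Figure D4:**
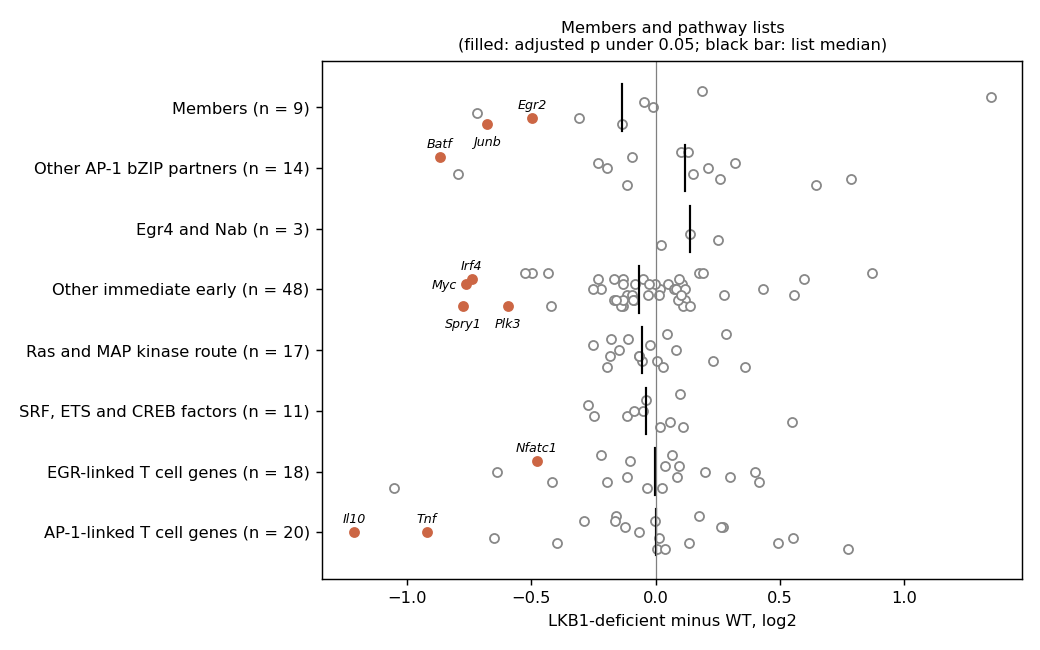
Difference of every measured gene (points; horizontal axis, LKB1-deficient minus WT, log2) in the members and the 7 pathway lists, with the list median as a black bar. The 10 filled points passed at an adjusted p under 0.05 and all lie below 0, the right-most open point among the members is Fosl2 at 1.35, and the medians lie between -0.13 and 0.14.

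Other cells that could contribute these transcripts were read through their own markers. Of 24 macrophage, monocyte and dendritic genes 0 passed and 3 were higher without overlap, against 0.996% of all genes. Estimates were positive in 23 of the 24 genes, with a median of 1.13. Ctss, the brightest of them, had a difference of -0.02 (adjusted p = 0.978), and Csf1r, a defining receptor of that lineage, was at 6.94 to 7.53 on WT arrays, 7.24 to 7.32 on LKB1-deficient arrays 1 to 3 and 10.55 and 10.49 on arrays 4 and 5. Of 18 B and plasma cell genes 0 passed, with a median of 0.63 and H2-Ab1 brightest (1.30, adjusted p = 0.174). The NK list had 1 of 10 higher, Klrd1 (1.53, adjusted p = 0.017), and 1 lower, Nkg7 (-0.84, adjusted p = 0.0236), with a mean of 4.80 to 5.03 on WT arrays and 4.85 to 5.87 on LKB1-deficient arrays. The CD8 list had Cd8a higher (0.77, adjusted p = 0.0423) and a mean of 6.38 to 6.71 against 6.88 to 7.18. The erythroid and platelet list had Gp9 higher (0.95, adjusted p = 0.0204) among 6 genes, with Ppbp brightest (1.28, adjusted p = 0.274). The neutrophil list had 0 of 12 past the threshold, with S100a9 brightest (0.78, adjusted p = 0.631). Heat shock genes, which respond to handling, had 0 of 9 past the threshold, with a list mean of 8.30 to 8.77 on WT arrays and 8.04 to 9.06 on LKB1-deficient ones. In bulk samples fewer cells of a type and less RNA per cell cannot be told apart. Every member was fitted without LKB1-deficient arrays 1, 4 and 5 and also with the means of those first 2 marker lists as covariates. In that order the difference was -0.13 and -0.087 in Fosb, 0.32 and 0.35 in Jun, -0.02 and -0.04 in Jund and -0.11 and -0.12 in Egr1, and none of these passed. No such fit was made for the CD8, NK, erythroid or neutrophil lists, and their part in the results was not tested.

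Likeness over the 10 arrays was measured as the root mean square (RMS) difference between log2 profiles centred on each gene's mean, among 7771 other genes with a mean of at least 6. The nearest to Egr1 was Zfp36, an immediate early gene whose protein promotes decay of cytokine messenger RNA, at 0.056, followed by Polr2g (0.057) and Lrrc45 (0.058). The nearest to Jun were Insr (0.084), Vasn (0.089) and Neat1 (0.10), and to Fos Trim23 (0.18), Bnip1 (0.19) and Eif4a2 (0.19). The profiles of Egr1, Jun and Fos had an RMS of 0.11, 0.18 and 0.31 around their own means, so the nearest profiles differed from them by an amount that was not small beside their own variation.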

How the data were processed

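Transcript levels were measured on single-channel arrays, 1 for each of 10 samples, after amplification of a few nanograms of RNA with NuGEN kits, per the labels' protocols. The deposited values are log2 signals of 41345 probe sets. RMA (robust multi-array average) and Partek 6.6 made them, per the submitters' processing notes, with settings not given in the sources used here. Quantile normalization in RMA hides a shift shared by all genes, and amplification can distort levels. Through the platform annotation 23521 probe sets named 1 gene, 1814 several and 16010 none. Each gene was represented by its highest-mean probe set.

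Groups came from the sample titles. LKB1-deficient arrays were compared with WT arrays in limma 3.58.1 (R 4.3.3; lmFit, eBayes) over 22180 genes with Benjamini-Hochberg adjustment, and a gene was called at an adjusted p under 0.05. All adjusted p-values come from this model or from the same model under the named alternative. The code was tested on simulated data. Interaction and set terms were fitted in the same way. Alternatives were other normalizations, filters, priors, blocks and weights, marker covariates and arrays left out. Promoter windows came from RefSeq. Same-numbered arrays of the groups were not paired in the main fit, where their deviations from the group means correlated at -0.079 to 0.10. Such correlations cannot show whether same-numbered samples came from the same chimeras, which no source used here states. The choice matters for the calls. With the replicate number as a block in limma, Junb (adjusted p = 0.116) and Egr2 (adjusted p = 0.0829) did not pass.

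The members, lists and alternatives were chosen with earlier results of these data known. Genes named besides the members were, per pathway list, up to 4 called genes with the smallest p or else the 2 with the smallest p; per list of other cells, the highest and the called genes; and the 3 nearest profiles of Fos, Jun and Egr1. Outside that rule, Foxp3, Cd69, Csf1r and the fused Fosl1 probe set were named after their values were seen. The number of arrays limits the precision.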

Additional observations from a re-analysis of the deposited data

Results flagged for a closer look

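In groups of 5 arrays, 2 of the 18 member and group combinations examined held a value far from the other 4. For independent, normally distributed values chance gives about 1 in 20. The combinations share arrays, and how many of all genes hold such a value was not counted. Fosl2 on LKB1-deficient array 1 was at 5.98, with the nearest other array of the group at 7.68 and the farthest at 8.17. Egr3 on LKB1-deficient array 1 was at 8.55, with the nearest at 7.28 and the farthest at 6.90. Both are the same array, on which Foxp3 was the lowest of all 10 and the T and Treg identity list was at 10.15. The cause was not tested.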

How the results depend on the processing

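All differences of Fosl2, Jun, Junb, Jund, Egr1, Egr2 and Egr3 kept their direction in every alternative run. Part of this was fixed in advance. Leaving out arrays cannot reverse Junb or Egr2, whose groups did not overlap. Other priors, thresholds and the blocks leave every estimate unchanged. Egr2 stayed past the threshold in 17 of 24 alternatives and Junb in 10 of 24. Fos had the opposite sign in 8 of 24 alternatives and Fosb in 3 of 24, none past the threshold. With 1 array left out, the difference ranged from -0.11 to 0.11 in Fos, -0.24 to 0.065 in Fosb, 1.18 to 1.73 in Fosl2, -0.77 to -0.56 in Junb, -0.52 to -0.47 in Egr2 and -1.01 to -0.60 in Egr3. The counts ranged from 8 to 180 genes higher and 30 to 340 lower, 0 to 1 members higher and 0 to 3 lower, and 0 to 8 genes of the pathway lists higher and 2 to 9 lower, against 52, 184, 0, 2, 0 and 8 with all arrays. Genes are given below for every other setting but the mean of all probe sets (51 higher, 178 lower), and members and list genes where their count moved by over 1.5 times. Without the dimmest 40% of genes 72 were higher and 284 lower, with 1 list gene higher. With array medians subtracted 52 were higher and 363 lower. A second quantile normalization gave 62 higher, 163 lower, 1 member lower and 1 list gene higher, with Fos at 0.026 and Junb at -0.65 (adjusted p = 0.0638). A trended robust prior gave 79 higher, 307 lower and 2 list genes higher. No variance moderation gave 17 higher, 132 lower, 1 member lower and 2 list genes lower, with Junb at -0.68 (adjusted p = 0.107). Array quality weights gave 135 higher, 329 lower, 1 member higher and 3 lower and 6 list genes higher, with Fosl2 at 1.56 (adjusted p = 0.00437) and Egr3 at -0.89 (adjusted p = 0.0223). LKB1-deficient array 1 had the lowest weight, 0.32 against 0.80 to 1.68 on the others. Fosl2 and Egr3 each passed in 5 of 24 alternatives, all of which leave out, down-weight or can absorb that array. The set as a block gave 70 higher and 190 lower.

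The replicate number as a block gave 14 higher, 36 lower, 0 members lower and 3 list genes lower. Under this replicate block Junb was at -0.68 (adjusted p = 0.116) and Egr2 at -0.50 (adjusted p = 0.0829). Of the LKB1-deficient arrays, 2 of 5 correlated best with the WT array of their own number.

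Within set 1, 3 arrays against 3, limma called 0 genes in either direction (2247 at an unadjusted p under 0.05), with Junb at -0.70 (adjusted p = 0.338) and Egr2 at -0.52 (0.252), 0 members and 0 list genes lower. In set 2 (2 arrays a group, without LKB1-deficient array 1) 423 genes were called higher and 46 lower, with 1 member higher and 1 lower and 6 list genes higher and 1 lower. Fosl2 was at 1.82 (adjusted p = 0.00548) there, Egr3 at -1.0 (0.026), Junb at -0.65 (0.121) and Egr2 at -0.46 (0.236). Without LKB1-deficient arrays 1, 4 and 5, 154 genes, 1 member and 6 list genes were higher and 203, 3 and 8 lower, with Fos at 0.24, Fosl2 at 1.66 and Egr3 at -0.92. With the marker covariates, 117 genes, 1 member and 7 list genes were higher and 192, 3 and 8 lower, with Fos at 0.29, Fosl2 at 1.63 and Egr3 at -0.89. At an adjusted p under 0.01, 5 genes were higher and 20 lower, 0 members and 2 list genes among the latter, so that Junb (-0.68) and Egr2 (-0.50) were not past it. The causes were not tested.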
